A study of Mus musculus with 16 samples.

Results

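The third day of retinoic acid treatment was examined in mouse embryonic stem cells labelled as a Suz12 knock-out (Suz12-KO), by setting the cells sampled at 72 h against those sampled at 48 h. The genes compared were those with at least 1 RPKM (reads per gene, divided by gene length and by all reads of the column) in either of these columns of the authors' table. They numbered 9752 of 24452 genes in the table, 8986 of them protein-coding, and rest on 4 of 16 samples. The deposited table gives 1 pooled column for each group of 2 samples, so the spread between cultures cannot be computed and no comparison below carries a p-value. Suz12-KO cells at 72 h and at 48 h had spent 72 h or 48 h in a medium without leukemia inhibitory factor (LIF) that contained 1 µM all-trans retinoic acid and was renewed every 24 h. Wild-type E14 cells (WT), the reference line, were sampled at the same times. Both lines also have columns at 24 h and at 0 h, the 0 h cells having been kept in serum and LIF on gelatin. RNA of every sample was total RNA cleared of short molecules and of ribosomal RNA. The nature of the Suz12 mutation, and whether the line is 1 clone, were not given in the sources used here.

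Polycomb repressive complex 2 (PRC2), of which Suz12 is an essential component, methylates lysine 27 of histone H3 at silent developmental genes. Retinoic acid binds nuclear receptors on DNA, and in embryonic stem cells without LIF it ends the pluripotent state and starts somatic programmes that depend on dose and culture. Cells of the primitive endoderm, an early epithelium beside the embryo proper, are recognised by GATA factors, by basement membrane proteins such as laminin α1 and by receptors that take up nutrients, such as cubilin. Contractile genes of smooth muscle, with smooth muscle actin (Acta2) and transgelin (Tagln) as the usual markers, are also switched on in many spreading mesenchymal cells.

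Depth was similar in the compared columns, with 25277999 reads at 72 h and 32153765 reads at 48 h in Suz12-KO and 26430463 and 24731176 reads in WT cells. The annotated non-coding gene Gm42418 took 56.6% and 58.5% of the reads in Suz12-KO cells at 72 h and 48 h, and protein-coding genes took 30.7% and 29.9%. RPKM are printed as deposited. Changes are log2 differences of RPKM + 0.5 after each column was divided by its median-of-ratios factor, which removed a shift of -0.10 between the Suz12-KO columns and of 0.02 between the WT columns. Bracketed ranges are exact 95% Poisson intervals of the reads behind a value and cover counting error only. Suz12 itself, examined as a check of the labels, was read at 1.35 RPKM (1.16 to 1.57) at 72 h and 2.38 RPKM (2.14 to 2.63) at 48 h in Suz12-KO cells, and at 0.995 and 1.26 RPKM in WT cells. Its RNA was thus present in both lines and at 48 h was higher in the column labelled Suz12-KO than in WT, while the intervals overlapped at 72 h (0.831 to 1.18 in WT), so it gives no check of the knock-out label, which is used here as deposited. Reads over a gene do not show whether protein is made. The 3 endoderm markers Lama1, Gata4 and Cubn went different ways. Lama1 (laminin α1) was at 55.9 RPKM (55.0 to 56.9) at 72 h against 33.5 (32.9 to 34.2) at 48 h, and the transcription factor gene Gata4 at 4.58 (4.17 to 5.02) against 2.19 (1.94 to 2.47). Cubn, the cubilin receptor, was at 8.38 (8.06 to 8.72) at 72 h against 17.7 (17.3 to 18.1) at 48 h.

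On the third day the changes leaned upward. At least 2-fold higher at 72 h were 284 genes, 2.91% of those compared, and at least 2-fold lower were 148 genes, 1.52%. With RPKM as deposited the split was 239 higher and 209 lower, so the balance between the directions depends on the scaling. The median gene changed by 0.02. Among protein-coding genes 259 were 2-fold higher (2.88%) and 105 were 2-fold lower (1.17%), and in each of these the 95% interval of the ratio of reads excluded no change. These intervals use the same reads by which the genes were picked and cover counting error only, so they give no separate support. Changes of at least 4-fold were found in 21 protein-coding genes that were higher and 5 that were lower. The first day, 24 h over 0 h, held more 2-fold differences, with 6.49% of protein-coding genes higher and 4.55% lower, and the second day, 48 h over 24 h, had 3.93% higher and 2.9% lower. The genes nearest to the threshold of the comparison were Snai1, just inside at 1.00 RPKM at 72 h and 0.691 at 48 h, and Arhgap39, just outside at 0.999 and 0.988. Of the 14700 genes left out, 3145 had no read in either column. A gene under 1 RPKM in 1 column was kept through the other column alone. The filter favours changes toward that other column, in every list below.

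**Figure D1:**
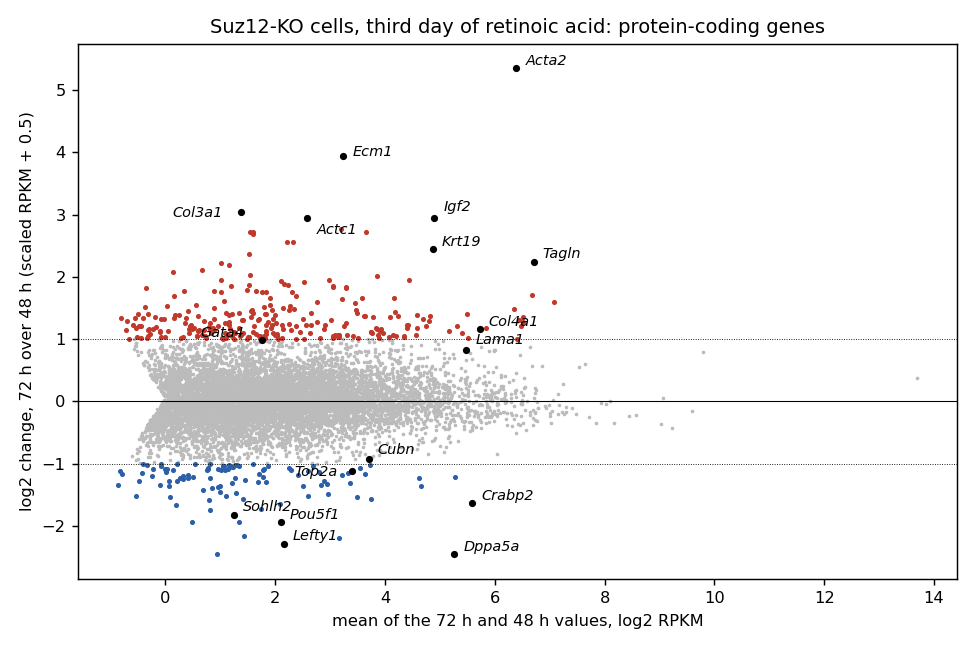
Each point is 1 of 8986 protein-coding genes in Suz12-KO cells, with the mean of the 72 h and 48 h values (log2 RPKM) on the horizontal axis and the log2 change, 72 h over 48 h, on the vertical axis. Dotted lines mark 2-fold, the 259 genes above the upper line are red and the 105 below the lower line are blue, and the named genes are black; Acta2 stands at 5.35, apart from the rest.

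The gene with the largest change was Acta2, smooth muscle actin (ENSMUSG00000035783, chromosome 19, 34241090 to 34255590 in GRCm38). It was at 164 RPKM (161 to 168) at 72 h against 3.72 (3.24 to 4.25) at 48 h in Suz12-KO cells, a log2 change of 5.35 and a ratio of 47.3 after scaling. Through the course it read 0.0206, 0.0638, 3.72 and 164 RPKM at 0, 24, 48 and 72 h, so nearly all of its level was reached in the last interval. Ecm1, an extracellular matrix glycoprotein, was at 18.2 RPKM at 72 h and 0.703 at 48 h. Col3a1, a fibrillar collagen chain of loose connective tissue, was at 5.06 RPKM (4.76 to 5.37) against 0.126 (0.0874 to 0.176). Several of the other leading genes encode secreted signals or their carriers. The imprinted growth factor gene Igf2 was at 52.7 RPKM (51.5 to 53.9) at 72 h against 6.80 (6.43 to 7.19) at 48 h, a change of 2.95, and Igfbp3, which binds insulin-like growth factors, was at 16.4 against 2.06. Wnt6, a Wnt ligand, was at 8.91 RPKM (8.12 to 9.76) against 1.13 (0.887 to 1.41). Aldh1a2, the enzyme that makes retinoic acid from retinal, was at 5.66 RPKM (5.06 to 6.31) against 0.412 (0.278 to 0.588), although retinoic acid was already in the medium. The other members of the leading 15 were the cardiac actin gene Actc1, the small heat shock gene Hspb8, the matrix gene Ccdc80, the uroplakin gene Upk3b, the iron exporter gene Slc40a1 (ferroportin), the keratin gene Krt19, the matrix gene Spon2 and Tagln, with changes between 2.24 and 2.95. All 15 had at least 5 RPKM at 72 h and were below 10 RPKM at 48 h, except Tagln, which stood at 38.2 RPKM at 48 h.

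Contractile genes made up the list with the highest median change of those with at least 8 genes kept. Of the 31 contractile genes kept, 17 were at least 2-fold higher and 0 were 2-fold lower, and their median change was 1.13 beside 0.02 for all genes. Tagln, an actin-binding protein of smooth muscle, was at 171 RPKM (167 to 175) at 72 h against 38.2 (36.5 to 39.9) at 48 h. Myl9, a myosin regulatory light chain, was at 23.1 RPKM (21.4 to 24.9) against 5.67 (4.94 to 6.49). The sarcomeric actins were lower in level but followed the same direction, Actc1 at 11 RPKM (10.0 to 12.1) against 1.00 (0.746 to 1.31) and Acta1 at 3.67 against 0.369. The enteric actin gene Actg2 was at 2.13 RPKM against 0.0796, from 84 and 4 reads. The 4 actin genes share most of their coding sequence, and the division of reads among them is uncertain, since the treatment of reads that match more than 1 gene was not stated. Myh10, a non-muscle myosin heavy chain, went against the list with a change of -0.06, and Myl7, an atrial light chain, was at 1.61 RPKM against 1.95. Acta1, Actg2 and Lmod1, and narrowly Actc1, were kept only through the 72 h column. Genes of the list that were not kept were low in both columns: the smooth muscle myosin gene Myh11 was at 0.680 RPKM at 72 h and 0.0516 at 48 h, and Myocd, the coactivator that drives smooth muscle genes, at 0.148 and 0.0436. The same list had a median change of 0.87 in WT cells, with 14 genes 2-fold higher.

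Serum response factor controls many contractile genes through the CArG box, a motif with C pairs and G pairs around a run of A and T. The motif was chosen after the values were seen. It was found on either strand in 8 of 33 RefSeq promoters (250 bases before to 50 after the start site, GRCm38.p6) of 28 contractile genes that could be matched, a share of 24.2%, against 1.63% of 32851 mouse promoters. The promoter of Acta2 in this window held no match, which says only that these letters are not in this window. The promoters of Actc1 (chr2:114052826-114053125, minus strand), Myl9 (chr2:156775214-156775513, plus strand) and Acta1 (chr8:123894726-123895025, minus strand) are shown 5′ to 3′ as genes whose RNA was over 4-fold higher after scaling and whose window holds the box, which is in capitals. It begins at position -47 of Actc1, -161 of Myl9 and -73 of Acta1 relative to the start site. Cnn2, Myl6, Vcl and Srf also hold the box and moved less, with Srf at 4.77 RPKM at 72 h against 3.82 at 48 h. Myl7 holds it too and was lower, at 1.61 against 1.95. Acta2, Cnn1 and Flna, without the box in this window, were at least 2-fold higher. Whether the box goes with the change was not tested.
Actc1: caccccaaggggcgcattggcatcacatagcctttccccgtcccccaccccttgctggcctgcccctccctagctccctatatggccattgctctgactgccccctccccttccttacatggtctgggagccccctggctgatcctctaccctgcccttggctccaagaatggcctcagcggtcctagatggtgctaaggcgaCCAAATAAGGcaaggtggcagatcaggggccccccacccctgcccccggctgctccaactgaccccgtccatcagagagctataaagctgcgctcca
Myl9: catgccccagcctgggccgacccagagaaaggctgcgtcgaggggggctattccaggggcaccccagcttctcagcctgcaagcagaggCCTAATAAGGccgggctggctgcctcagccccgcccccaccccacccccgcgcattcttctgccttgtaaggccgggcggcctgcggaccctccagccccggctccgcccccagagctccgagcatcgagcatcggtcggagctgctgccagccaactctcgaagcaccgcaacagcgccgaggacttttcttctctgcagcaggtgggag
Acta1: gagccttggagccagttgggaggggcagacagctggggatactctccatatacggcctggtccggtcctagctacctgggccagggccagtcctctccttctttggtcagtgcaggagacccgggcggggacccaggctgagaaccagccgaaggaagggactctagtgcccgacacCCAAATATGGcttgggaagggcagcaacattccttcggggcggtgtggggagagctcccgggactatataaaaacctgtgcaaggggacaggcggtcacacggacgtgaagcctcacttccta

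Of the 21 basement membrane genes kept, 8 were at least 2-fold higher and 0 were 2-fold lower, with a median change of 0.89, and WT cells had 5 at least 2-fold higher among the same genes. The α1 and α2 chains of type IV collagen, the network collagen of basement membranes, were at 71.7 RPKM (70.5 to 73.0) against 34.1 (33.3 to 34.9) for Col4a1 and at 39.0 against 16.8 for Col4a2. Sparc, a collagen-binding protein abundant in parietal endoderm, was at 119 RPKM (116 to 121) against 45.2 (43.9 to 46.5). Laminin 111 is built from the chains of Lama1, Lamb1 and Lamc1, and all 3 moved by similar amounts: the changes were 0.83, 0.81 and 0.83, under 2-fold. Their levels were 55.9, 78.3 and 80.1 RPKM at 72 h in Suz12-KO cells, against 4.67, 19.8 and 21.8 RPKM at 72 h in WT cells. Large changes in the list also belonged to genes with lower levels, Smoc2, a calcium-binding matrix protein, at 4.58 RPKM against 0.999, and Tinagl1, a matrix glycoprotein, at 4.59 against 1.40. Itga6, a laminin receptor subunit, went the other way with a change of -0.06.

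Genes of collagen folding and the secretory pathway moved less. Of 35 kept, 3 were at least 2-fold higher and 0 were lower, with a median change of 0.52 (WT 0.22). The 3 were Creb3l1, a transcription factor of secretory cells, at 2.02 RPKM (72 h) against 0.550 (48 h), Fkbp10, a collagen chaperone, at 11.9 against 5.80, and P4ha2, a prolyl hydroxylase of collagen, at 7.02 against 3.45. Serpinh1, the collagen chaperone HSP47, was at 126 against 73.9 RPKM. The general chaperones of the endoplasmic reticulum did not follow, with Hspa5 (BiP) changing by 0.04 and Hsp90b1 (GRP94) by -0.48.

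The list for parietal endoderm, which lays down Reichert's membrane, shares its laminin and type IV collagen genes with the basement membrane list. Of 24 genes kept, 8 were 2-fold higher and 0 were lower, with a median change of 0.83 in Suz12-KO and 0.62 in WT cells. Among its members outside the matrix, the highest levels at 72 h were those of the keratins Krt8 and Krt18, at 155 and 201 RPKM at 72 h against 50.4 and 70.6 at 48 h, and Fst (follistatin, an activin inhibitor) was at 9.34 RPKM (8.58 to 10.2) against 2.21 (1.89 to 2.57). Other such members stayed near their 48 h level, among them the endocytic adaptor gene Dab2 at 5.34 against 5.66, the proteoglycan gene Srgn at 1.84 against 2.20 and the retinol transporter gene Stra6 at 5.84 against 5.40. Of the 11 endoderm transcription factor genes kept, 0 passed 2-fold in either direction, near the background of 2.91% and 1.52%, 9 had a change above 0, and the median was 0.33, or 0.20 with GC centring. Gata4 had the largest change at 0.98, followed by its cofactor gene Zfpm1 at 0.98 and Foxa1 at 0.60. Sox17 was at 4.87 RPKM at 72 h against 3.89 at 48 h, and Sox7 at 2.08 against 1.95, so their levels on the second day were largely kept. In WT cells at 72 h Gata4, Sox17 and Sox7 were at 0.310, 0.648 and 0.0574 RPKM.

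Genes for nutrient uptake and transport by visceral endoderm split in both directions. Of the 16 kept, 4 were at least 2-fold higher, 4 were at least 2-fold lower and 8 lay between, with a median of -0.32. Among the same genes WT cells had 1 at least 2-fold higher and 2 lower, with a median of -0.01. Genes of the cubilin receptor complex were all lower at 72 h in Suz12-KO cells. Cubn had a change of -0.93, just under 2-fold. Amn, the amnionless protein that carries cubilin to the cell surface, was at 0.117 RPKM (0.0381 to 0.274) at 72 h against 1.03 (0.781 to 1.34) at 48 h, from 5 and 56 reads. Lrp2 (megalin), the large endocytic receptor that works beside cubilin, was at 7.94 RPKM (7.68 to 8.22) against 15.4 (15.1 to 15.8). In WT cells Lrp2 was also lower at 72 h, by a change of -1.16, and Amn was at 0 RPKM against 0.408. Cubn stayed below 0.5 RPKM at both times in WT cells. The apolipoprotein gene Apoe was at 7.13 RPKM against 17.9 in Suz12-KO cells and at 4.72 against 16.2 in WT cells. In Suz12-KO cells Apoa2 was at 0.589 against 2.26 from 8 and 39 reads. Fcgrt, the neonatal Fc receptor, was at 0.319 against 1.40 there, from 14 and 78 reads. Amn, Apoa2 and Fcgrt were kept only through the 48 h Suz12-KO column, so the filter favours decreases among them. On the other side were the iron exporter gene Slc40a1 at 8.25 against 1.00 and Cited1, a transcriptional coregulator, at 5.32 against 1.77. The tight junction gene Cldn6 was at 29.4 against 13.1 and Rbp4, the plasma carrier of retinol, at 2.90 against 1.25. In WT cells Slc40a1 and Cldn6 were also higher, at 4.78 against 0.849 and 18.5 against 10.8. Cited1 and Rbp4 were lower there, at 0.388 against 0.715 and 1.23 against 1.47. The classical secreted products of visceral endoderm were below 1 RPKM in both columns, with Afp at 0.0759 and 0.0447 RPKM, Ttr at 0.682 and 0.663 and Apoa1 at 0 and 0.0503. In these bulk samples fewer cells of a type and less RNA per cell cannot be told apart.

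**Figure D2:**
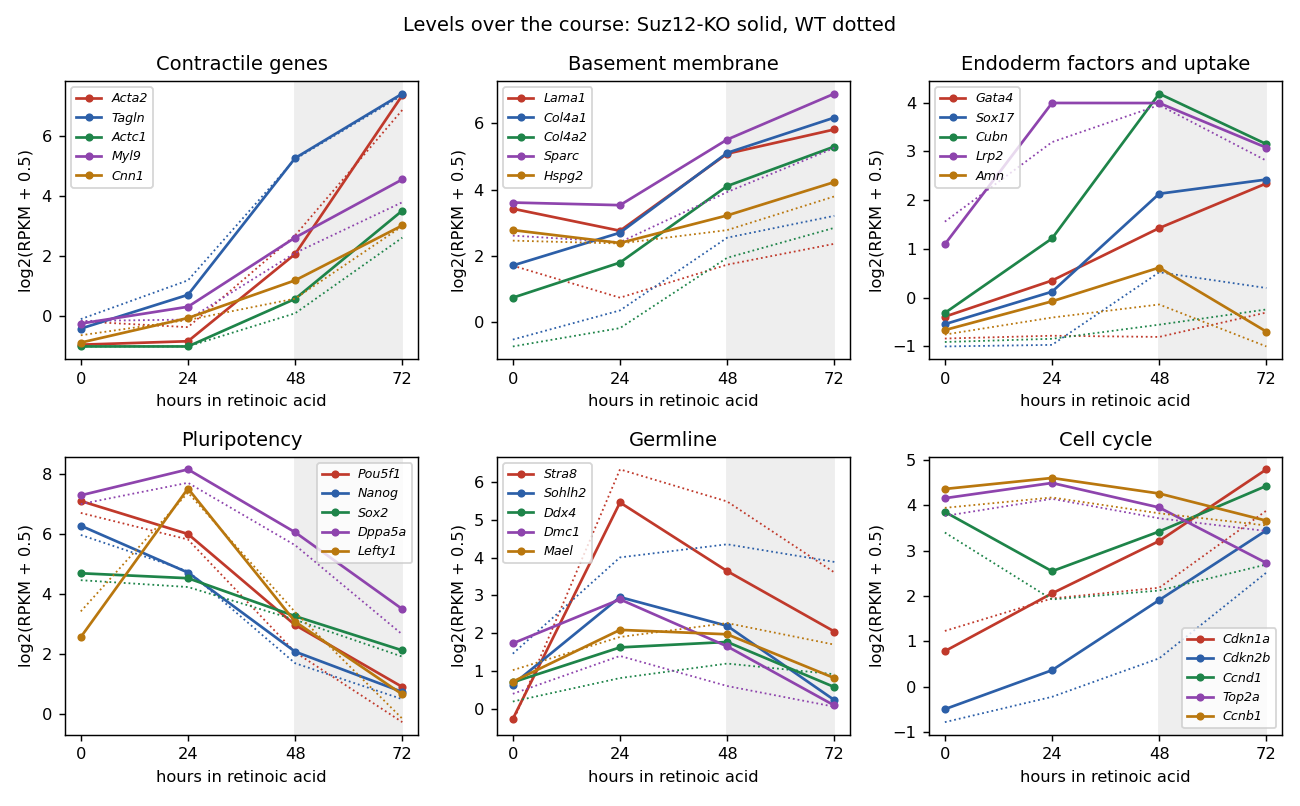
Each panel plots log2(RPKM + 0.5) against hours in retinoic acid for 5 genes of a group, Suz12-KO as solid lines with points and WT as dotted lines, 1 pooled column per point, with the third day shaded. Acta2 and Actc1 climb steeply in the shaded interval in both lines, and the basement membrane genes lie higher in Suz12-KO cells. Cubn, Lrp2 and Amn turn down in Suz12-KO cells, and Lrp2 and Amn also in WT cells.

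Lists for simple epithelia and for mesenchyme both held 2-fold increases in a minority of their genes. Of the 33 keratin and epithelial genes kept, 11 were at least 2-fold higher and 0 were lower, and 26 had a change above 0 (median 0.48). Krt19 was at 49.2 RPKM (47.2 to 51.2) at 72 h against 9.19 (8.43 to 9.99) at 48 h, and Perp, a desmosome protein and p53 target, at 34.4 against 9.15. The epithelial adhesion genes Tjp1 and Epcam had the lowest values of the list, with changes of -0.53 and -0.51. Of the 17 genes of epithelial-mesenchymal transition and migration kept, 6 were at least 2-fold higher (median 0.55, WT 0.90), among them Vim, the mesenchymal intermediate filament, at 129 RPKM against 53.6, the calcium-binding gene S100a6 at 18.1 against 5.75 and the galectin gene Lgals1 at 127 against 55.9. The other direction held the cadherin gene Cdh2 and Spp1 (osteopontin), with changes of -0.62 and -0.49. Of 11 interstitial collagen and fibroblast genes kept, 5 were at least 2-fold higher (median 0.68), led by Col3a1, then Col12a1 at 2.51 RPKM against 0.747 and Col5a1 at 2.59 against 0.872. Col1a2, a chain of type I collagen, was lower at 0.619 RPKM against 1.53, and Lum and Postn, markers of mature fibroblasts, were at 0 at 72 h. Of the 5 higher genes, Col3a1, Col12a1, Col5a1 and Loxl1 were kept only through the 72 h column. Col1a2 was kept only through the 48 h column.

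Mesoderm genes had a smaller median change in Suz12-KO cells than in WT cells, 0.42 against 1.21 over the same 14 genes, but gene by gene the median of the difference between the lines was -0.14. In Suz12-KO cells 4 of them were at least 2-fold higher, against 9 in WT cells. The 4 were the transcription factor genes Tbx2 (3.12 RPKM at 72 h against 0.558 at 48 h), Msx2 (4.58 against 1.45), Foxc2 (1.38 against 0.331) and Foxf1 (2.18 against 0.811). Of these, Tbx2, Foxc2 and Foxf1 were kept only through the 72 h Suz12-KO column. The factor gene Meox1, expressed in early somites, was lower at 1.03 RPKM against 3.63. The difference between the lines came with levels that were already higher at 48 h in Suz12-KO cells for several members. Hand2 was at 2.39 RPKM at 72 h and 1.74 at 48 h in Suz12-KO cells, and at 2.89 and 0.525 in WT cells. Wt1 was at 4.23 and 3.28 in Suz12-KO cells, and at 4.37 and 1.07 in WT cells.

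Of the 31 pluripotency genes kept, 12 were at least 2-fold lower and 1 was at least 2-fold higher, and 8 had a change above 0, with a median change of -0.77, and in WT cells 18 of the same genes were at least 2-fold lower with a median of -1.11. Pou5f1 (Oct4), the central factor of the pluripotent state, read 137, 63.5, 7.27 and 1.35 RPKM at 0, 24, 48 and 72 h in Suz12-KO cells, and the last of these values had an interval of 1.07 to 1.69. Nanog was at 1.15 RPKM (0.885 to 1.46) at 72 h against 3.69 (3.26 to 4.16) at 48 h, and Sox2 at 3.82 against 9.04. Dppa5a, a gene of the naive state, had the largest decrease of the protein-coding genes with at least 5 RPKM, at 10.7 RPKM (9.17 to 12.5) against 66.1 (62.5 to 69.7), a change of -2.46. Gdf3, a ligand of the TGF-β family, was at 0.168 RPKM against 3.66, from 9 and 250 reads. Of the 12 lower genes, Dppa2, Dppa4, Gbx2, Gdf3 and Utf1 were kept only through the 48 h Suz12-KO column, which favours decreases. Stat3, which carries the LIF signal and was counted in the list, went against it at 5.83 RPKM against 2.25, and Socs3, an inhibitor induced by this pathway, was at 2.11 against 0.914. The third-day change of Pou5f1 was -1.94 in Suz12-KO and -2.30 in WT cells, and its levels in WT cells were 0.319 RPKM at 72 h and 3.64 at 48 h.

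The 15 protein-coding genes at the lower end, among those with at least 5 RPKM in the higher column, included Dppa5a and Pou5f1. Nodal, which maintains the epiblast, was at 1.17 RPKM (0.898 to 1.50) at 72 h against 5.55 (5.00 to 6.14) at 48 h, and its antagonist gene Lefty1 at 1.06 (0.777 to 1.41) against 7.89 (7.17 to 8.66). Lefty1 had peaked at 183 RPKM at 24 h. Dnmt3l, a cofactor of de novo DNA methylation, was at 2.65 against 15.2. Crabp2, a retinoic acid carrier of the cytoplasm, was at 22.0 RPKM (20.4 to 23.6) against 74.5 (72.0 to 77.2). Porcn, the enzyme that acylates Wnt proteins, was at 1.65 against 6.81, and the metallothioneins Mt1 and Mt2 at 5.20 and 2.70 against 17.3 and 9.40. Prtg (protogenin, a receptor of the early embryo), Stra8, Emb, Rragd, Upp1 and Hsp90aa1 completed the 15, with changes between -1.57 and -1.32.

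Germline genes are a class largely silent in somatic cells. Of the 10 kept, 8 were at least 2-fold lower and 0 were higher, beside 1.52% lower over all genes. The median change was -1.09 (-0.47 with no filter on RPKM, over more genes). Among the same 10 genes WT cells had 1 at least 2-fold lower and a median of -0.52. Sohlh2, Dmc1, Piwil2, Ddx4, Rpl10l and Tdrd1 were kept only through the 48 h Suz12-KO column, where they were high. The filter thus favours decreases in this set, and more so in Suz12-KO than in WT cells. Sohlh2, a germ cell transcription factor, was at 0.669 RPKM (0.478 to 0.911) at 72 h against 4.08 (3.64 to 4.56) at 48 h in Suz12-KO cells, and at 14.3 against 20.0 RPKM in WT cells. Stra8, a meiotic gene induced by retinoic acid, was at 3.62 RPKM against 12.0 in Suz12-KO cells and at 11.7 against 44.5 in WT cells. The meiotic recombinase gene Dmc1 was at 0.559 RPKM against 2.64, from 31 and 186 reads, Piwil2, a protein of the piRNA pathway, at 0.491 against 2.00, and the RNA helicase gene Ddx4 at 0.986 against 2.90. Rpl10l, a retrocopy of a ribosomal protein gene, was at 0.814 against 2.56, from 21 and 84 reads, and its counts are uncertain because the parent gene is alike in sequence. Summed over all 26 members in the table, germline RNA was 37.5, 93.4, 40.2 and 12.9 RPKM at 0, 24, 48 and 72 h in Suz12-KO and 50.6, 160, 101 and 52.3 RPKM in WT cells.

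Of the 20 genes of G1 cyclins and CDK inhibitors kept, 4 were at least 2-fold higher and 0 were lower, 12 had a change above 0 and the median was 0.12 (0.03 with RPKM as deposited). The inhibitor genes Cdkn1a (p21) and Cdkn2b (p15) were at 27.1 RPKM (25.8 to 28.5) against 8.76 (8.09 to 9.47) and at 10.4 (9.36 to 11.5) against 3.26 (2.75 to 3.83). The cyclin D genes Ccnd1 and Ccnd2, which open G1, were also higher, at 21.0 against 10.2 and 20.4 against 9.65. Of 37 p53 target and apoptosis genes kept, 7 were at least 2-fold higher and 1 was lower (median 0.48). The 7 included Plk2 at 36.8 RPKM against 16.6, the antiproliferative gene Btg2 at 18.2 against 8.69 and Sfn (14-3-3σ) at 9.61 against 3.91, and Plk3 was the lower one at 0.844 against 2.58. Mitosis and DNA replication genes had medians below 0. Of 36 mitosis genes kept, 2 had a change above 0 and 2 were at least 2-fold lower, Top2a (topoisomerase IIα) at 6.12 RPKM (5.80 to 6.45) against 14.9 (14.5 to 15.4) and the spindle motor gene Kif11 at 1.72 against 4.34. Their median change was -0.47, beside -0.17 in WT cells. Of 41 DNA replication genes, 3 had a change above 0, 0 were 2-fold different and the median was -0.38, beside -0.20 in WT cells. Over all genes 2.91% were 2-fold higher and 1.52% 2-fold lower. Pcna, the sliding clamp, was at 5.08 against 9.32 RPKM, and Rfc1, a clamp loader subunit, at 0.956 against 2.52.

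Base composition moved with the third-day change. Across 8986 protein-coding genes, which are not independent replicates, the change in Suz12-KO cells had a Spearman rho of 0.40 with the GC content of the transcript, against 0.17 for the third day in WT cells and 0.20 and 0.04 for the second and first days in Suz12-KO cells. The quintile of genes with the lowest GC content, at a median of 42.2%, had a median change of -0.27 in Suz12-KO and -0.07 in WT cells, and the quintile with the highest, at 58.0%, had 0.19 and 0.07. Kept mitosis genes had a median GC content of 47.0% and DNA replication genes of 48.9%, beside 50.3% for all protein-coding genes and 53.6% for contractile genes. With changes centred within 20 bins of GC content, an alternative chosen after seeing the data, the medians were -0.40 for mitosis, -0.43 for DNA replication and 0.96 for contractile genes. The same centring left 203 protein-coding genes at least 2-fold higher and 105 lower.

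**Figure D3:**
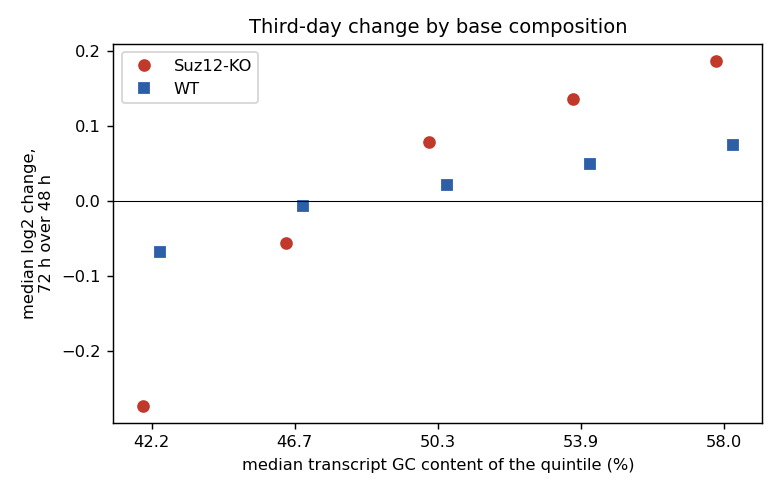
Median log2 change, 72 h over 48 h, of protein-coding genes in each quintile of transcript GC content, with Suz12-KO as red circles and WT as blue squares. The Suz12-KO medians run between -0.27 and 0.19 and the WT medians between -0.07 and 0.07, in the same order of GC content.

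Genes of the retinoic acid pathway were spread around no change. Of the 36 kept, 5 were at least 2-fold higher, 3 were at least 2-fold lower and the median was 0.08, which turned to -0.02 with RPKM as deposited. Cyp26a1, whose enzyme clears retinoic acid from the cell, stood at 82.6 RPKM at 72 h against 83.9 at 48 h in Suz12-KO cells, whereas WT cells had 28.7 against 50.4. Cyp26b1, a related enzyme, was at 7.30 RPKM (72 h) against 3.05 (48 h) in Suz12-KO cells. Tgm2, a transglutaminase and classic retinoic acid target, was at 4.51 against 2.02, while in WT cells it was at 3.69 against 3.57. The first-wave target Hoxb1 was at 0.221 RPKM against 2.06, from 13 and 154 reads. Of the 17 Hox genes kept, Hoxb1 alone was at least 2-fold lower and 0 were higher, and Hoxa5 was at 13.8 against 8.33. Over all genes 2.91% were 2-fold higher and 1.52% 2-fold lower, so these Hox counts are not set apart from the background. The median Hox change of -0.09 turned to 0.06 in 1 of 8 alternative settings. Of the 8 neural genes kept of 41 in the table, Sox1, a marker of neural progenitors, was 2-fold lower at 0.303 RPKM against 1.79, and Nefl (neurofilament light) was at 2.02 against 0.865. Hoxb1 and Sox1 were kept only through the 48 h column, and Nefl only through the 72 h column.

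Most signalling genes stayed within 2-fold. Of 29 genes of FGF, Wnt and BMP signalling kept, 6 were at least 2-fold higher and 1 was lower (median 0.26). Besides Wnt6, they were Wnt4 at 1.58 RPKM at 72 h against 0.311 at 48 h, Wnt3 at 1.31 against 0.344, Wnt11 at 2.67 against 0.847, the Wnt antagonist gene Sfrp1 at 10.6 against 4.49 and Sp5, a target of β-catenin, at 1.79 against 0.637. The growth factor gene Fgf3 was the lower one at 0.221 against 1.27, from 13 and 95 reads. Wnt3, Wnt4, Wnt11 and Sp5 were kept only through the 72 h column, and Fgf3 only through the 48 h column. In WT cells 4 of the same signalling genes were at least 2-fold higher and 2 were lower, with a median of 0.28. Of 24 YAP and TGF-β targets kept, 6 were at least 2-fold higher and 0 were lower (median 0.40), led by the receptor kinase gene Axl at 12.6 RPKM against 3.08 and the latent TGF-β binding gene Ltbp1 at 5.91 against 1.60. Of 19 imprinted genes kept, 3 were at least 2-fold higher: Igf2, Dlk1 at 13.1 against 3.44 and Igf2r, the receptor that clears Igf2, at 36.7 against 15.4. H19, the non-coding RNA next to Igf2, was at 1.25 RPKM against 0.420 in Suz12-KO cells, from 75 and 32 reads, and at 22.8 against 3.51 RPKM in WT cells. Igf2 itself was alike in both lines at 72 h, with 52.7 RPKM in Suz12-KO and 59.5 in WT cells.

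Of 10 PRC2 subunit genes kept, 0 were 2-fold different, a count near the background of 2.91% higher and 1.52% lower over all genes, and 3 had a change above 0 (median -0.23, WT -0.05). The methyltransferase gene Ezh2 was at 3.41 RPKM at 72 h against 5.46 at 48 h, the core subunit gene Eed at 6.62 against 9.02 and the accessory gene Mtf2 at 1.53 against 3.24. Of 21 PRC1 genes kept, 0 were 2-fold different, and of 19 housekeeping genes 0 were 2-fold different, with medians of 0.00 and -0.06. Among glycolysis genes 0 of 20 were at least 2-fold different in Suz12-KO cells, and their median was 0.00, which was below 0 in 4 of 9 alternative settings. In WT cells 3 of the same genes were at least 2-fold lower and the median was -0.38. The glucose transporter genes Slc2a1 and Slc2a3 were at 65.8 and 44.8 RPKM at 72 h against 93.0 and 86.4 at 48 h in Suz12-KO cells, and at 46.5 and 27.7 against 164 and 93.4 RPKM in WT cells.

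Markers of other cell types were mostly not kept. The trophoblast list had 18 genes in the table, of which 6 were kept, with a summed level of 68.6 RPKM at 72 h and 64.0 at 48 h in Suz12-KO and 328 and 316 RPKM in WT cells, most of it from the imprinted gene Peg10. All 6 kept genes had a change above 0, with a median of 0.79 (WT 0.64) that was 0.23 with no filter. The epithelial keratin gene Krt7 was 2-fold higher, at 1.85 RPKM at 72 h against 0.662 at 48 h, and the transcription factor genes Gata3 and Ets2 were at 1.69 against 0.743 and 4.01 against 2.27. The trophoblast factors Cdx2 and Elf5 were at 0.332 and 0.0337 RPKM at 72 h in Suz12-KO cells. Of 23 endothelial and blood genes 2 were kept, with sums of 5.86 and 6.41 RPKM and Gata1 at 0 in both columns. Of 18 cardiac genes 4 were kept, with sums of 20.1 and 6.10 RPKM, of which Actc1 gave 11 and 1.00, and 13.7 and 5.59 RPKM in WT cells. Actc1 and Myh7 were the 2 kept genes at least 2-fold higher, and the median of the 4 was 0.91 (WT 0.51). The factor gene Nkx2-5 was at 2.20 RPKM against 1.53 and Myl7 at 1.61 against 1.95. Below the filter, Tnnc1 and Myl3 were at 0.912 and 0.878 RPKM at 72 h against 0.269 and 0.310 at 48 h. Cardiac troponin T (Tnnt2) and ventricular light chain (Myl2) were at 0 at both times, and cardiac myosin Myh7 was at 1.22 RPKM against 0.152. Neural genes summed to 17.8 RPKM at 72 h and 23.5 at 48 h. The summed levels of the endoderm factors were 42.1 and 33.5 RPKM in Suz12-KO and 18.2 and 17.4 in WT cells, and those of the contractile genes were 1344 and 577 RPKM in Suz12-KO and 991 and 431 in WT cells.

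**Figure D4:**
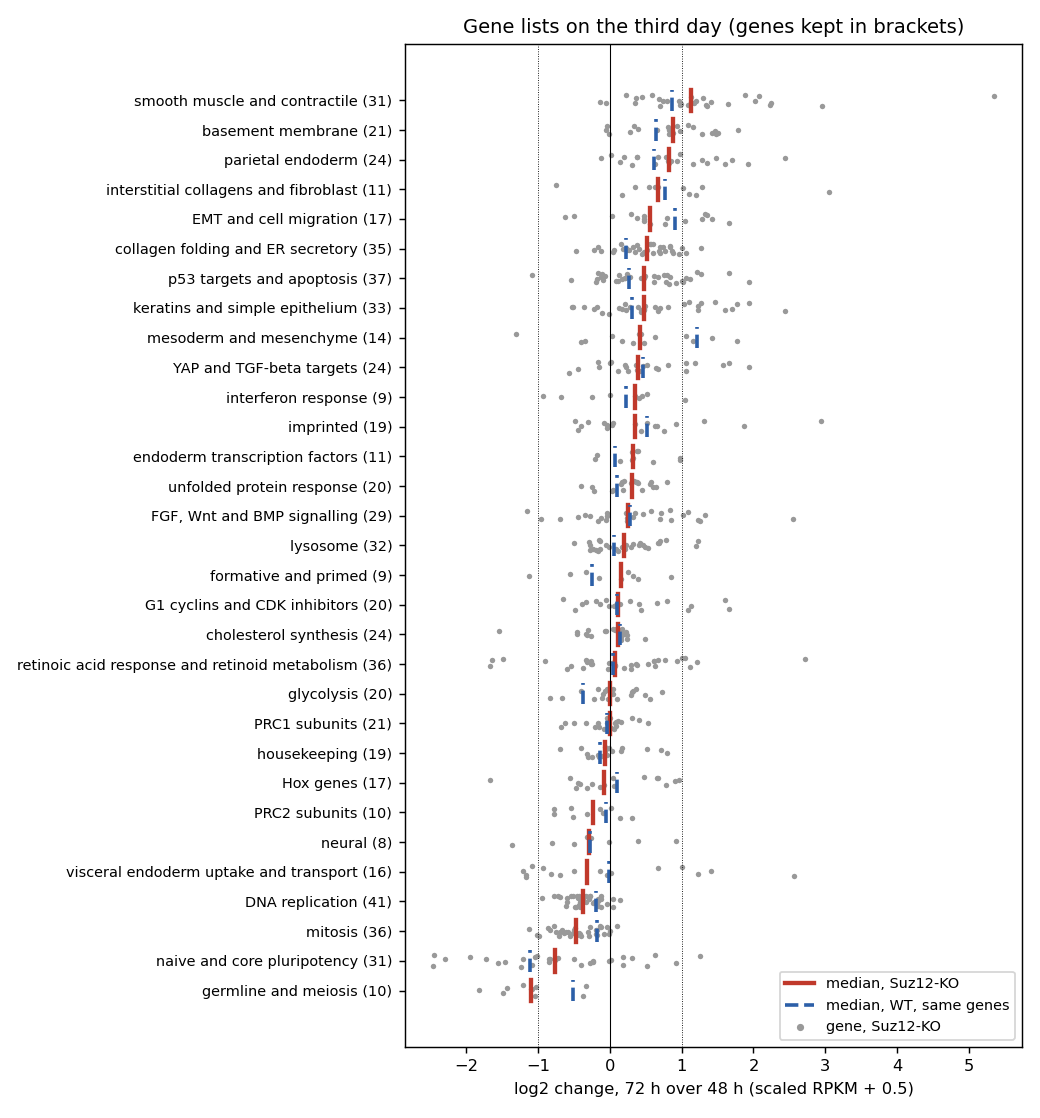
Third-day log2 changes for each gene list with at least 8 genes kept, ordered by median; grey points are genes in Suz12-KO cells, red bars their median and blue dashed bars the median of the same genes in WT cells. The contractile list has the highest Suz12-KO median at 1.13 and the germline list the lowest at -1.09, and the mesoderm list has medians of 0.42 in Suz12-KO and 1.21 in WT cells, with a median difference per gene of -0.14.

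WT cells passed through the same interval in independent columns. There 258 of 9500 genes were higher by 2-fold or more (2.72%) and 171 were lower (1.8%), and among protein-coding genes 193 were higher (2.24%) and 114 lower (1.32%). Over 8388 protein-coding genes kept in both lines the third-day changes had a Pearson r of 0.725 and a Spearman rho of 0.655, given as a description across genes that share libraries and depth. Of the 259 protein-coding genes 2-fold higher in Suz12-KO cells, 246 were also above 0 in WT cells, 111 were 2-fold higher there and 0 were 2-fold lower, with a WT median of 0.93. Of the 105 that were 2-fold lower in Suz12-KO cells, 101 were below 0 in WT cells, 46 were 2-fold lower and 0 were 2-fold higher, with a WT median of -0.81. Acta2 was at 164 RPKM at 72 h against 3.72 at 48 h in Suz12-KO cells and at 117 against 5.99 in WT cells, so this gene rose steeply in both lines. The authors' marks for a difference between 72 h and 0 h in Suz12-KO cells, which use the same 72 h column, cover 224 of the 259 and 78 of the 105.

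Differences between the lines are given as the third-day change in Suz12-KO cells minus that in WT cells, with no replicate to test them. Of the 10 largest positive differences, 5 belonged to genes that were lower at 72 h in WT cells by 2-fold or more. Sfrp5, a secreted Wnt antagonist, was at 1.42 RPKM at 72 h and 1.57 at 48 h in Suz12-KO cells and at 0.458 and 7.70 in WT cells, a difference of 3.03. Car2 (carbonic anhydrase 2), Slc2a1, Upp1 (uridine phosphorylase) and Glul (glutamine synthetase) were the others lower in WT cells, and their Suz12-KO changes differed. Car2 was at 7.12 RPKM at 72 h and 14.3 at 48 h in Suz12-KO cells and at 2.56 and 25.6 in WT cells. Glul was at 48.4 and 35.6 in Suz12-KO cells and at 17.5 and 35.1 in WT cells. Upp1 was also among the 15 genes at the lower end in Suz12-KO cells. In the other 5 the Suz12-KO level itself was higher at 72 h by 2-fold or more. Ccn2 (connective tissue growth factor), a YAP target, was at 16.4 RPKM (15.4 to 17.3) at 72 h against 5.47 (5.00 to 5.97) at 48 h in Suz12-KO cells and at 3.91 against 6.77 in WT cells. Spon2 was at 5.18 against 0.584 in Suz12-KO cells and at 0.626 against 0.325 in WT cells, and Fst at 9.34 against 2.21 and at 1.89 against 1.44. Cited1 was at 5.32 against 1.77 in Suz12-KO cells and at 0.388 against 0.715 in WT cells, and S100g (calbindin D9k) at 10.2 against 4.54 and at 0.236 against 0.505.

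Among the 10 largest negative differences, 5 belonged to genes that moved little in Suz12-KO cells, with changes between -0.18 and 0.39, and were already higher at 48 h there than in WT cells. Twist1, a mesenchymal transcription factor, was at 7.93 RPKM (7.09 to 8.84) at 72 h and 8.33 (7.57 to 9.16) at 48 h in Suz12-KO cells and at 9.37 and 2.63 in WT cells, a difference of -1.60. Gas1, a Hedgehog coreceptor, was at 66.4 and 63.8 RPKM in Suz12-KO cells and at 54.9 and 18.4 in WT cells, and Eno3, the muscle enolase, at 18.6 and 18.6 in Suz12-KO and 16.6 and 7.02 in WT cells. The receptor gene Igdcc3 and the adhesion gene Lrrn4 had differences of -1.20 and -1.08. Aldh1a7, an aldehyde dehydrogenase, and Creg1, a secreted glycoprotein, were lower at 72 h in Suz12-KO cells, at 7.45 against 11.9 RPKM and 8.59 against 15.7, while in WT cells they were at 5.53 against 3.01 and 4.58 against 3.41. Aldh1a2 was the exception among these genes, since it was at 5.66 RPKM against 0.412 in Suz12-KO cells and at 14.2 against 0.411 in WT cells. Sohlh2 and Cubn, described above, completed the 10, with differences of -1.34 and -1.23.

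**Figure D5:**
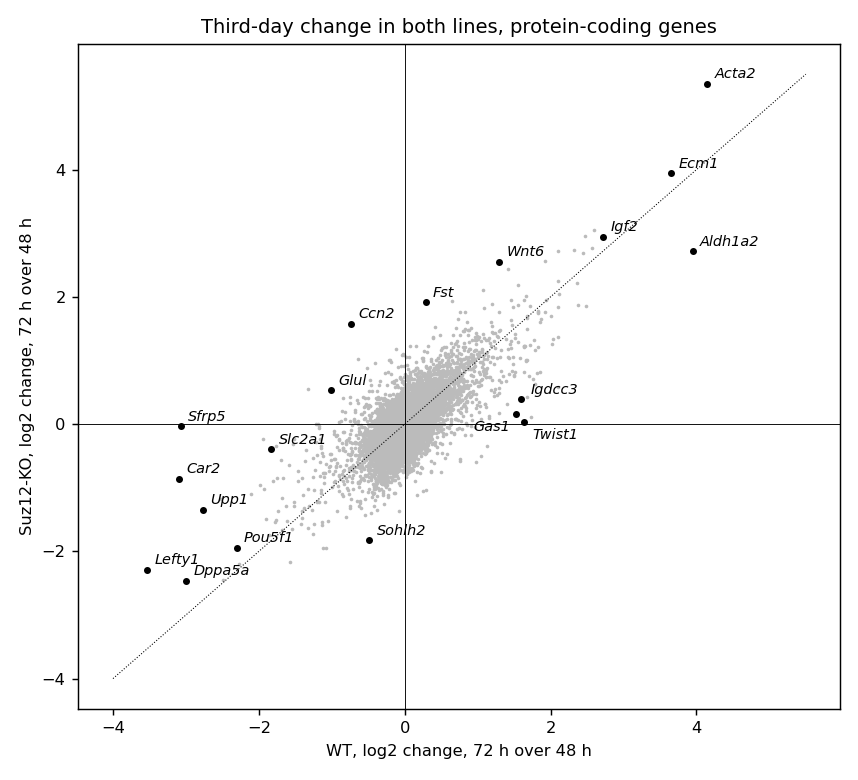
Third-day log2 change of each of 8388 protein-coding genes kept in both lines, with Suz12-KO on the vertical axis and WT on the horizontal axis; the dotted line marks equal change and named genes are black. Acta2, Ecm1 and Igf2 lie far along the line, Ccn2 and Fst above it, and Twist1 and Gas1 below it.

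Non-coding genes gave few changes with enough reads to describe. Of 92 microRNA loci kept, 10 were at least 2-fold higher and 19 lower, but the median locus had 6 reads in its higher column, and of those with at least 10 reads 2 were higher and 4 were lower. The largest decreases, Mir106a with 0 reads at 72 h against 11 at 48 h and Mir291b with 3 against 40, belong to microRNA clusters that are active in pluripotent cells, and both clusters were examined after these values were seen. RNA shorter than 200 nt had been removed, so the reads stand for longer RNA over the hairpins and not for mature microRNAs. The 7 loci of the Mir290 to Mir295 cluster on chromosome 7 held 577, 361, 84 and 14 reads at 0, 24, 48 and 72 h in Suz12-KO cells and 517, 489, 56 and 12 reads in WT cells. The counting interval was 7.65 to 23.5 reads at 72 h and 67.0 to 104 reads at 48 h in Suz12-KO cells. The 6 loci of the Mir106a to Mir363 cluster on chromosome X held 70, 113, 38 and 2 reads in Suz12-KO cells and 81, 129, 78 and 4 reads in WT cells. Of the mature microRNAs of these loci in RefSeq (GRCm38.p6), 8 are shown 5′ to 3′ for the seeds of the clusters, with the seed, bases 2 to 8, in capitals; other arms of the same hairpins, some with shared seeds of their own, are not shown. The first 3 share 1 seed, the fourth, from the locus with the large decrease, differs from it in its last base, and each of the last 2 pairs shares another.
mmu-miR-291a-3p: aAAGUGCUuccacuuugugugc
mmu-miR-294-3p: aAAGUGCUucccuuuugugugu
mmu-miR-295-3p: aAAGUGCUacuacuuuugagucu
mmu-miR-291b-3p: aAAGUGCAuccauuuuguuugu
mmu-miR-106a-5p: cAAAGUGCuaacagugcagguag
mmu-miR-20b-5p: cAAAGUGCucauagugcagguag
mmu-miR-363-3p: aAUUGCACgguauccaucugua
mmu-miR-92a-3p: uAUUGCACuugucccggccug

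The other non-coding genes at the ends of the range were small nuclear and nucleolar RNAs, pseudogenes and unnamed loci. Higher at 72 h were the small Cajal body RNA genes Gm22009, at 172 RPKM (164 to 181) against 90.0 (84.5 to 95.8), Gm22442 at 21.4 against 10.4 and Gm25492 at 58.9 against 32.3, and the locus Gm24105 at 260.2 against 146 RPKM. The long non-coding gene Gm13067 was at 6.17 RPKM against 2.93, from 63 and 38 reads. Mir351, Gm24245 and an Ensembl gene without a current annotation (ENSMUSG00000092890) had at most 30 reads at 72 h. Lower were the pseudogene Gm12260 at 3.18 RPKM against 11.6, from 33 and 153 reads, the small nucleolar RNA gene Gm24616 at 23 reads against 85, Snord64 at 9.45 against 24.1, from 16 and 52 reads, and Gm22193, Mir7-1 and Gm15148, each with at most 34 reads at 48 h.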

How the data were processed

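RNA-seq of 16 samples in 8 groups of 2 (Suz12-KO or WT, 4 times) was analysed from 1 deposited table. In it the authors give RPKM for 24452 genes, 1 pooled column per group, with Ensembl release 72 identifiers. The submitters' processing notes name TopHat, featureCounts, DESeq2 and GRCm38 (mm10); their versions and settings, how replicates were pooled, how reads matching several genes were counted and whether strand was used are not given in the sources used here. Whole reads were then recovered, as the column totals and gene lengths for which each RPKM stands for a whole number: 153803 of 153803 values above 0 were whole within 0.0001 reads. For 13715 genes the annotated length gave whole reads. For the other 10737 the smallest length that made every value whole was taken, so wholeness is no check of their reads. The recovered reads gave exact Poisson and Clopper-Pearson 95% intervals, which cover counting error only. No count test was run, since each group has 1 column.

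RPKM were divided by median-of-ratios factors from genes with at least 1 RPKM in any column, 0.5 was added and log2 differences were taken; 2-fold is a log2 difference of 1 on this scale, which understates low genes. Ratios and their intervals leave out the 0.5. Scaling was tested on simulated data, and the recovery of reads was not. Symbols, classes, annotated lengths and GC content came from GENCODE M21. Of the genes kept, 87 had no current symbol. Motifs were searched on both strands of 300-base RefSeq promoters: the CArG box, and the motif of GATA factors, searched as AGATAA and as TGATAA, which 18.6% of all promoters and 0 of 20 basement membrane, 1 of 7 endoderm factor, 3 of 22 parietal and 2 of 22 visceral endoderm promoters held.

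The members and the 35 gene lists were chosen with earlier results of these data known. Named genes are the markers, list members (about 6 with the largest changes and 2 going the other way, with others for context), the 15 protein-coding and 8 non-coding genes at each end of the Suz12-KO change with at least 5 RPKM in the higher column, and the 10 at each end of the difference between lines with at least 5 RPKM in 1 of 4 columns. Python 3.11.15, pandas 2.3.3, numpy 2.4.6, scipy 1.17.1 and matplotlib 3.10.9 were used.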

Additional observations from a re-analysis of the deposited data

How the results depend on the processing

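No paired analysis was possible because the table has 1 pooled column per group, and for the same reason leaving out replicates and the replicate block were not run. Requiring 5 RPKM in place of 1 left 145 genes higher and 44 lower in Suz12-KO cells and 104 and 54 in WT cells, since fewer genes were compared. A pseudocount of 0.1 gave 439 and 285 in Suz12-KO cells, and one of 1 gave 174 and 80 in Suz12-KO cells and 170 and 109 in WT cells. The other alternatives (other scalings, no filter, protein-coding genes only, GC centring, and a pseudocount of 0.1 in WT cells) kept each count within 1.5 times. No named gene that passed 2-fold changed direction under any alternative run. Of 675 named genes, 42 dropped below 2-fold with a pseudocount of 1, 28 with GC centring and 13 with RPKM as deposited. Of 32 list medians with at least 5 genes, 26 kept their sign in every alternative, and those for Hox, PRC1, cholesterol, formative, glycolysis and retinoic acid genes, none of them above 0.16, did not. With no filter, which adds genes below 1 RPKM, the medians of the mesoderm and interstitial collagen lists were 0.17 and 0.28. Depth limits genes with few reads: of the 148 lower genes, 41 had under 50 reads in both columns together, and for 124 the interval of the ratio excluded no change.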

Other observations

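Over all genes, 2.91% were 2-fold higher and 1.52% 2-fold lower on the third day in Suz12-KO cells. Of 32 lysosome genes kept, 2 were at least 2-fold higher, the protease gene Ctsd at 122 RPKM (120 to 125) at 72 h against 56.5 (54.9 to 58.2) at 48 h and the mannosidase gene Man2b1 at 8.36 against 3.49, and the median was 0.20. In WT cells Man2b1 was at 2.22 against 1.93 RPKM. Of 20 unfolded protein response genes kept, 0 were 2-fold different (median 0.31). Of 9 interferon response genes kept, 1 was 2-fold higher, the peptide transporter gene Tap1 at 4.55 against 2.06. Of 9 formative and primed pluripotency genes kept, Dnmt3b alone was 2-fold different, and it was lower. Actb, the cytoplasmic β-actin often taken as a constant control, was at 1099 RPKM at 72 h against 679 at 48 h in Suz12-KO cells and at 689 against 520 in WT cells.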
